A study of Mus musculus with 416 samples.

Results

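Replication of the genome was followed in single blastomeres of 8-cell mouse embryos in which Rif1 had been targeted by siRNA (siRif1) and in single blastomeres of 8-cell embryos that had received a control siRNA (siCont). The cells described here are those with a column in the deposited tables of these groups, which were 50 siRif1 cells of 64 labelled and 60 siCont cells of 72 labelled, or 110 of the 299 cells in the tables of all 6 groups. Zygotes of the cross (C57BL/6J xCBA) x DBA/2J received 20 µM of either siRNA by injection, 17 to 18 hours after hCG, and were then cultured in KSOM medium. Embryos were taken at several times so as to cover S phase, the blastomeres were separated, and the DNA of each cell was amplified and barcoded by itself, per the labels' protocols. Groups of the 4-cell and morula stages had been prepared in the same way, and the siCont cells of those stages served here as an outside ruler of early and late DNA. For each 50-kb bin of chromosomes 1 to 19 a cell had a state of 1, read as replicated, a state of 0, read as not yet replicated, or no state. Since no label ties a cell to an embryo, litter or batch, cells could not serve as independent replicates, and a group was 1 sample. Differences are therefore given by their size, with no test, and 95% intervals are exact Clopper-Pearson intervals that cover counting error only. DNA was measured, so neither the level of Rif1 transcript or protein left in the siRif1 cells nor any marker of the stage can be read from these tables.

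Rif1 encodes a large chromatin-bound protein known to set the time at which parts of the genome replicate. It recruits protein phosphatase 1 (PP1), which removes the phosphates that the kinase Cdc7 with its partner Dbf4 (together called DDK) places on the replicative helicase, and so holds back the firing of origins in late domains. Loss of Rif1 in cultured mammalian cells is known to blur early and late replication and to move domains in both directions. In ordinary somatic cells gene-dense DNA replicates early and gene-poor DNA late, and this programme is known to become more defined during the cleavage divisions of the embryo.

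The siRif1 cells had replicated a lowest, median and highest percentage of their measured bins of 11.9, 43.2 and 66.3%, and the siCont cells of 9.61, 48.3 and 97.3%. The highest siRif1 cell was exceeded by 12 siCont cells, so the last part of S phase was covered by siCont cells and hardly at all by siRif1 cells. Between 88.9 and 94.0% of all bins had a state in siRif1 cells, against 88.8 to 93.9% in siCont cells. A bin was used when at least 10 cells of both groups had a state, which kept 46230 of 49264 bins. The threshold was far from the data, since every used bin had a state in at least 49 siRif1 and 59 siCont cells. A whole chromosome lacked states in 3 siRif1 cells (chromosomes 10, 11 and 19, 1 cell each) and in 1 siCont cell (chromosome 7). In either group the shortest run of 1 state inside a chromosome was 5 bins, so structure below that length cannot be read.

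The percentage of measured cells in the replicated state, called the replicated share of a bin, spread less over the genome in siRif1 cells. Its SD over bins was 14.8 points in siRif1 cells and 19.9 points in siCont cells, and counting error alone would give a mean bin an SD of 6.69 and 5.92 points. Shares above 70% were found for 2.04% of bins in siRif1 cells against 15.8% in siCont cells, and shares below 30% for 19.6 and 21% of bins. The middle range of 30 to 70% held 78.3% of bins in siRif1 cells and 63.2% in siCont cells. These shares are not centred, and the mean share was 42.9% in siRif1 cells and 49.1% in siCont cells. The SD was smaller in siRif1 cells on 19 of 19 autosomes, and the siRif1 minus siCont difference in SD was -5.08 points over all bins and -3.1 points without the siRif1 cells numbered 41 to 48 in their titles. Autosomes were read in the same cells, so they are not replicates, here or below.

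Bins were then ordered by the mean share of siCont cells at the 4-cell and morula stages, which are cells of neither compared group, and this order is called the schedule. Its cells share the treatment of the siCont group, so it is not neutral between the groups. In the latest decile of the schedule the mean replicated share was 23.6% in siRif1 cells and 19.2% in siCont cells. In decile 3 from the latest the shares were 34.3 and 32.8%, and in decile 4 they were 38.2 and 40.8%, so the curves of the groups crossed there. In the earliest decile the shares were 58.7% in siRif1 cells and 76.1% in siCont cells. Because siRif1 cells were on average less advanced, each share was centred on the mean of its group. The siRif1 minus siCont difference of centred shares is called the shift, in percentage points, with negative values for DNA replicated later in siRif1 cells and positive values for DNA replicated earlier. The mean shift was -10.2 points in the earliest quintile of bins and 10.6 points in the latest. The distance between them was 20.8 points with an SD over autosomes of 4.28 points, and it ran from 13.8 points on chromosome 6 to 30.3 points on chromosome 11. With classes taken from siRif1 cells of the 4-cell and morula stages it was 17.0 points. On percentile ranks within each group, where a mere change of scale has no effect, the distance on the schedule was 14.9 percentile points. This unit cannot be set beside percentage points of share.

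**Figure D1:**
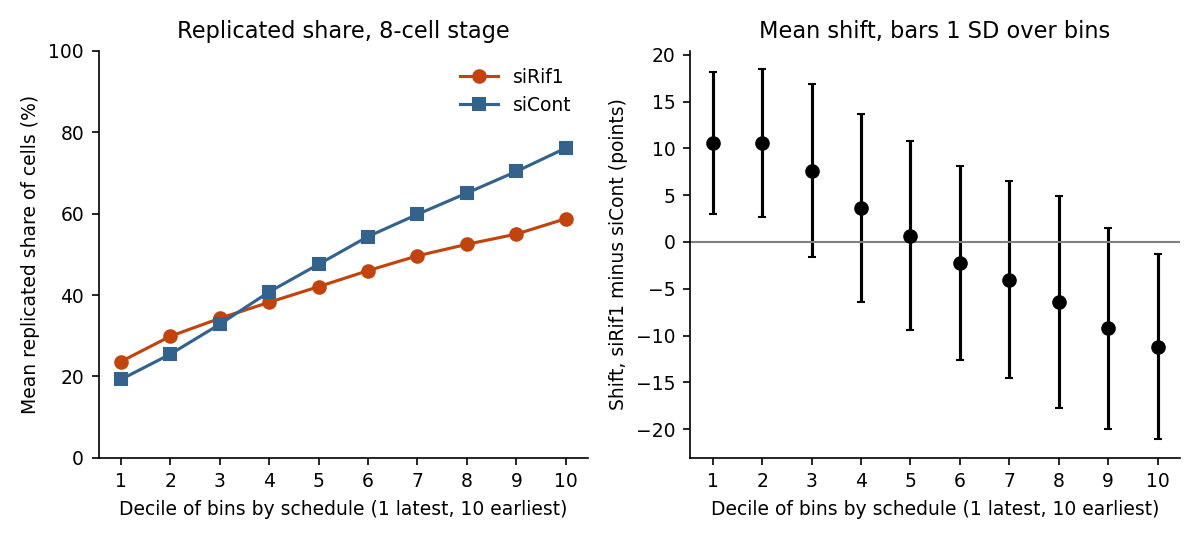
Mean replicated share (left, percent of cells) and mean shift (right, siRif1 minus siCont, percentage points; bars are 1 SD over bins) in deciles of bins ordered by the schedule, from 1 (latest) to 10 (earliest). The siRif1 line is the flatter one and lies at 58.7% in the earliest decile, against 76.1% in siCont cells.

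Among bins of like scheduled timing, those in gene-dense surroundings had the lower shifts. In the earliest quintile, bins with 13 or more protein-coding genes within 500 kb were replicated in a mean of 53.8% of siRif1 cells and 73.9% of siCont cells, a mean shift of -13.9 points (SD over bins 9.97). Bins of the same quintile with 5 to 12 genes had 61.1 and 72.6%, a mean shift of -5.33 points. Those with 1 to 4 genes had 61.5% in siRif1 cells and 69.3% in siCont cells, a mean shift of -1.61 points over 298 bins. In siRif1 cells the gene-densest bins of the earliest quintile thus had the lowest share of the 3 classes, whereas in siCont cells they had the highest. In the middle quintile the gene-densest bins had 37.4% in siRif1 cells and 51.7% in siCont cells (shift -8.12 points), and bins with 5 to 12 genes had 45.8 and 52.3% (shift -0.397 points). Bins with 1 to 4 genes had 44.4% in siRif1 cells and 49.3% in siCont cells (shift 1.25 points), so there the gene-densest bins were lowest in siRif1 cells but not highest in siCont cells. In the latest quintile, bins with no gene within 500 kb had 26.9% in siRif1 cells and 21.2% in siCont cells, a shift of 11.9 points, and bins with 13 or more genes had 18.6 and 19%, a shift of 5.71 points. Base composition goes along with gene density and was not measured here, so the part of either in the shift was not tested.

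Individual cells followed the schedule to very different degrees, and less closely in siRif1 embryos. For each cell between 10 and 90% replicated an order score was computed, the chance in percent that a replicated bin stands earlier in the schedule than an unreplicated one. It is 50 when states ignore the schedule and 100 when they follow it fully. The 50 siRif1 cells had a lowest, median and highest score of 36.9, 64.4 and 93.8, and the 58 siCont cells of 42, 74.7 and 93.5. The upper ends of the groups lay together, and the groups overlapped over almost all of the range. Scores below 50 were found in 11 siRif1 cells (22%, interval 11.5 to 36%) and 2 siCont cells (3.45%, interval 0.420 to 11.9%). Without the siRif1 cells numbered 41 to 48 in their titles the siRif1 count was 6 of 44 (13.6%), and without those numbered 57 to 64 it was 6 of 43 (14%). It was 10 of 43 without the siRif1 cells numbered 49 to 56. All other siRif1 scores below 50 lay in the cells numbered 41 to 48 and 57 to 64, which were never left out together. The siRif1 excess of such scores thus lay mainly in these cells. Without the siCont cells numbered 1 to 8 the siCont count was 1 of 51, and without those numbered 41 to 48 it was 1 of 54. Scores of 80 or more were found in 13 siRif1 cells (26%, interval 14.6 to 40.3%) and 25 siCont cells (43.1%, interval 30.2 to 56.8%).

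The extremes show what the score measures. The siRif1 cell with the lowest score had replicated 33.3% of its bins in all, but 21.9% of the earliest quintile and 48.9% of the latest quintile. The siRif1 cell with the highest score was at a like point of S phase, 29.1%, and had replicated 87.7% of the earliest quintile and 0.141% of the latest. The lowest siCont cell, at 52% replicated, had replicated 43.7% of the earliest quintile and 62.4% of the latest, and the highest, at 30.4%, had 88.9 and 0.217%. Strict and inverted patterns thus both occurred under either siRNA. Over cells, the earliest minus the latest quintile had a median of 31.5 points in siRif1 cells and 52.9 points in siCont cells.

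**Figure D2:**
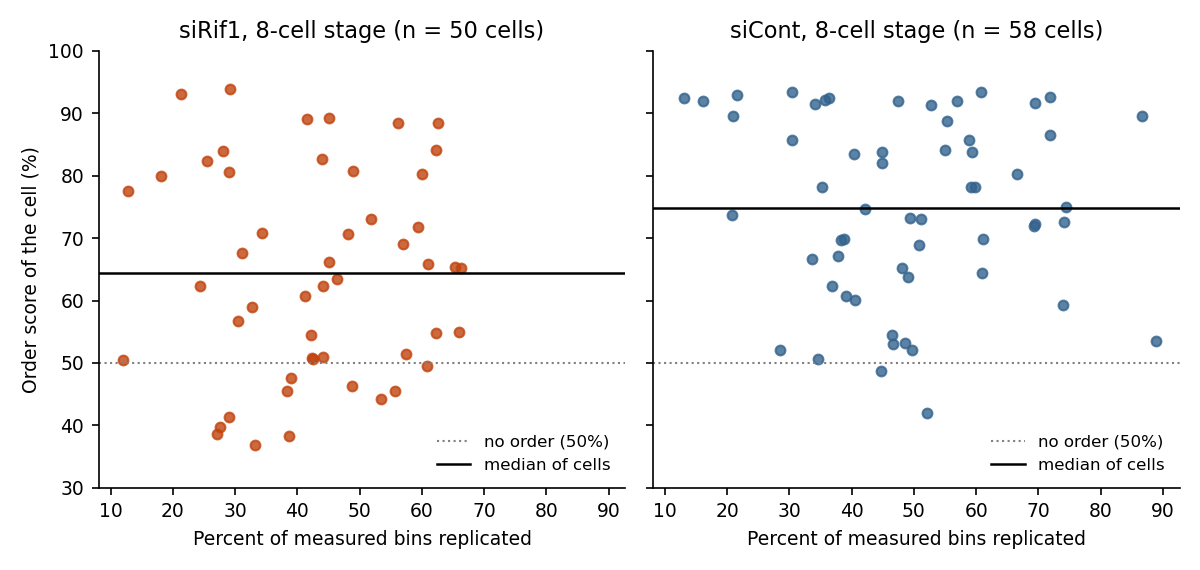
Order score (percent) of each 8-cell blastomere against the percent of its measured bins that were replicated, with siRif1 cells on the left and siCont cells on the right. Each point is 1 cell, the solid line is the median (64.4 in siRif1 cells, 74.7 in siCont cells) and the dotted line is the value of 50 for no order; 11 siRif1 and 2 siCont points lie below it.

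The lower scores were not bound to a stretch of S phase. In cells 10 to 35% replicated the median score was 67.5 in 17 siRif1 cells and 89.6 in 11 siCont cells. In cells 35 to 50% replicated it was 60.7 in 17 siRif1 cells and 68.4 in 22 siCont cells, and in cells 50 to 90% replicated it was 65.6 in 16 and 78.2 in 25 cells. Across cells the score had a correlation of r = 0.00566 with percent replicated in siRif1 cells and -0.0703 in siCont cells, and of 0.00524 and 0.137 with the percent of bins measured. Against the number of genes within 500 kb in place of the schedule, the median score was 56.6 in siRif1 cells and 64.7 in siCont cells. When the schedule was the mean of the other cells of a cell's own group, the siRif1 median lay 7.41 points below that of siCont cells, compared with 10.4 points on the outside schedule. At the 4-cell, 8-cell and morula stages the median was 61.9, 64.4 and 70.4 in siRif1 cells and 65.6, 74.7 and 80.2 in siCont cells. For each stage the schedule came from the siCont cells of the other stages, so these medians rest on schedules that differed between stages. Whether the gap differs between stages was not tested.

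Scores were also uneven along the numbers in the cells' titles, which the labels do not explain. In runs of 8 consecutive numbers the 6 siRif1 cells numbered 41 to 48 had scores from 36.9 to 50.5 (median 40.5), and the 7 numbered 57 to 64 had scores from 44.2 to 65.4 (median 47.6). The other siRif1 runs had medians between 63.2 and 80.2. In siCont cells the lowest medians were 54.5, in the 7 cells numbered 1 to 8, and 59.97, in the 4 numbered 41 to 48. The SD over cells was 16.6 in siRif1 cells and 14.5 in siCont cells, and within such runs it was 12.5 and 11.7. Whether a run stands for an embryo, a collection time or an amplification strip is not stated, and the part of any of these in the scores was not tested. Of the other siRif1 runs only that of the cells numbered 49 to 56 held a score below 50 (lowest 38.6). Leaving out any 1 run of either group gave a median difference between -13.8 and -8.57 points. The low siRif1 runs 41 to 48 and 57 to 64 were never left out together, so every such difference keeps at least 1 of them.

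The width of the replication window, the field's measure of variation between cells, was also larger in siRif1 cells. It was taken from the percentage of states that were replicated as a function of how far a cell had gone beyond the scheduled position of a bin, as the distance between the points where 25 and 75% were reached. The width was 97.3 points of S phase in siRif1 cells (SD over autosomes 9.67) and 58.8 points in siCont cells (SD over autosomes 6.13). By autosome it ran from 85.2 to 121 points in siRif1 cells and from 47.6 to 68 points in siCont cells, so the ranges did not overlap. All autosomes of a group come from the same cells, so these ranges and SDs do not measure variation between cells or embryos. The scheduled positions came from siCont cells of other stages, so the width also takes in any departure of a group's mean timing from them. When the schedule was the mean of the other cells of a cell's own group, the siRif1 width was larger by 30.4 points. At 1 point before the scheduled position 46.1% of states were replicated in siRif1 cells and 51.2% in siCont cells, and the siRif1 curve was the flatter one on both sides. The siRif1 curve reached 75% near the end of the range its cells cover, because no siRif1 cell was beyond 66.3%. Without the 7 siRif1 cells numbered 57 to 64 the difference in width was 19.2 points, compared with 38.4 points with them, so these cells carried much of its size.

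**Figure D3:**
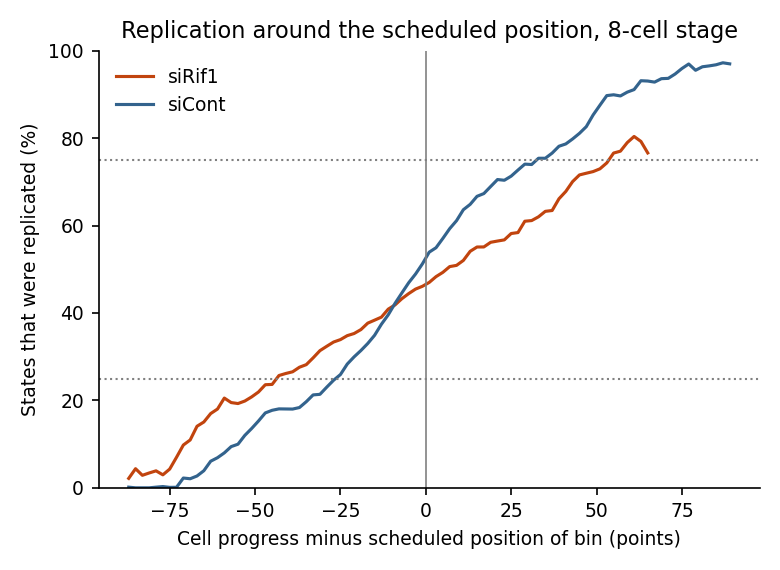
Percent of states that were replicated (y axis) against the percent replicated of the cell minus the scheduled position of the bin (x axis, points of S phase), for siRif1 and siCont cells of the 8-cell stage. Dotted lines mark 25 and 75%, and the distance between their crossings is 97.3 points in siRif1 cells and 58.8 points in siCont cells.

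Cells at the same point of S phase were less alike within the siRif1 group. Pairs of cells within 5 points of each other, both 20 to 80% replicated, had a median correlation of states of 0.0654 in siRif1 cells (223 pairs) and 0.139 in siCont cells (265 pairs). A siRif1 cell paired with a siCont cell gave a median of 0.0650 over 456 pairs, as low as that among siRif1 cells. Correlations of 0.3 or more made up 6.73% of siRif1 pairs, 13.2% of mixed pairs and 20.8% of siCont pairs. Pairs share cells, so these are descriptions of the groups. The replicated and unreplicated stretches themselves differed less. There were 23.3 switches of state per 1000 neighbouring bins in the median siRif1 cell (range 15.9 to 33.8) and 21.4 in the median siCont cell (range 13.8 to 33.2), with SDs over cells of 5.13 and 4.87, so the groups largely overlapped. The median replicated stretch was 22 bins long in siRif1 cells and 24 bins in siCont cells, and its 90th percentile was 76 and 96 bins. Unreplicated stretches had a median of 27 bins in both groups. The difference in switches of 1.97 moved to 0.768 in cells 35 to 65% replicated. It was 3.52, 4.37, 4.44 and 4.44 without the siRif1 cells numbered 9 to 16, 17 to 24, 25 to 32 and 33 to 40, and 1.2 without those numbered 41 to 48, 49 to 56 or 57 to 64.

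Large shifts were few. Of the used bins, 1.05% (486 bins) were later in siRif1 cells by 30 points or more and 0.223% (103 bins) earlier by as much. At 20 points or more the shares were 6.4% (2961 bins) and 3.93% (1817 bins). Over all bins 47.8% had a shift below 0 and 52.2% a shift above 0, but centring sets the mean shift to 0, so this split says nothing of a net direction. Of the 1.05% that were later, most lay early in the schedule, where the 3 earliest deciles had 2.83, 3.70 and 2.52% of their bins later by 30 points or more. Bins earlier by 30 points or more were most frequent in decile 3 from the latest, at 0.931%. In siCont cells the mean share was 19.2% in the latest decile and 76.1% in the earliest. Late bins thus had little room for a share to fall, and early bins little room for it to rise. The place of large shifts in the schedule was bounded in part by this. By chromosome the later share was highest on chromosome 17 (4.97%) and chromosome 11 (4.92%) and was 0% on chromosomes 6 and 13. These shares depended on which cells were used. Among 43 pairs of siRif1 and siCont cells matched in percent replicated they were 2.23% later and 0.653% earlier. The later share was 2.06, 1.69, 0.668 and 0.508% without the siRif1 cells numbered 9 to 16, 25 to 32, 41 to 48 and 57 to 64, and 2.04, 0.675 and 1.59% without the siCont cells numbered 1 to 8, 9 to 16 and 33 to 40. The earlier share was 0.353, 0.495, 0.417 and 0.424% without the siRif1 cells numbered 1 to 8, 9 to 16, 17 to 24 and 25 to 32, and 0.465 and 0.350% without the siCont cells numbered 1 to 8 and 57 to 64.

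Later DNA lay in longer blocks than earlier DNA. Bins later by 20 points or more formed 409 runs, of which 41 were 1 Mb or longer, and these held 45.9% of such bins. Bins earlier by 20 points or more formed 425 runs, of which 9 were 1 Mb or longer, and these held 11% of such bins. The longest later run was 3.65 Mb, at chr4:134150001-137800000, with a mean shift of -27.3 points and the midpoints of 72 protein-coding genes. The run at chr10:79350001-82800000 had a mean shift of -36.2 points over 58 used bins in a span of 3.45 Mb. It crosses bins that were not used, and its 150 genes were counted over the whole span. The run at chr17:23550001-26700000 had -32.7 points and 141 genes. The longest earlier run was 1.75 Mb, at chr1:27250001-29000000, with a mean shift of 24.2 points and 1 gene. Coordinates are those of GRCm38, the build named in the submitters' processing notes.

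The 1-Mb windows with the lowest shifts were gene-dense regions. These windows, and the highest ones below, were picked from 2265 by the same 8-cell shifts. Their counts, in all or in matched cells, and their intervals restate that choice and are no separate support. The lowest lay at chr10:80000001-81000000 and held 54 protein-coding genes. Most of its bins were replicated in 10 of 49 siRif1 cells (20.4%, interval 10.2 to 34.3%) and 38 of 60 siCont cells (63.3%, interval 49.9 to 75.4%), and its mean shift was -38.4 points. In matched cells the counts were 7 of 42 siRif1 and 26 of 43 siCont cells. The 3 longest genes there were Gng7, which encodes a G protein gamma subunit, Sbno2, a transcriptional co-regulator gene, and Dot1l, the histone H3 lysine methyltransferase gene. Their own bins were replicated in 8, 7 and 9 of 49 siRif1 cells and 37, 37 and 38 of 60 siCont cells. At the 4-cell and morula stages this window had shifts of -18.8 and -14.0 points, so it was below 0 at each stage measured.

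The window at chr17:25000001-26000000, with 48 genes, was replicated in 9 of 50 siRif1 cells (18%, interval 8.58 to 31.4%) and 39 of 60 siCont cells (65%, interval 51.6 to 76.9%), a mean shift of -37.3 points. It held Lmf1, whose product matures lipases, Ift140, a component of intraflagellar transport in cilia, and Cacna1h, a T-type calcium channel gene. The window at chr17:28000001-29000000, with Fkbp5, a co-chaperone gene of the glucocorticoid receptor, the lipid-sensing nuclear receptor gene Ppard and the p38 kinase gene Mapk14, was replicated in 15 of 50 siRif1 and 44 of 60 siCont cells, a shift of -33.7 points. Next, the window at chr7:30000001-31000000, with the zinc finger gene Zfp568, the centrosomal gene Wdr62 and the nephrin gene Nphs1, was replicated in 15 of 50 siRif1 and 40 of 59 siCont cells, a shift of -32.1 points. The window at chr2:26000001-27000000, with Nacc2, Ccdc187 and the receptor gene Notch1, was replicated in 14 of 50 siRif1 and 41 of 60 siCont cells, a shift of -31.2 points. On chromosome 11 the windows at chr11:98000001-99000000 (Ikzf3, Cdk12 and Fbxl20) and chr11:115000001-116000000 (Rab37, Grb2 and Tmem104) had shifts of -31.1 and -30.5 points. The window at chr4:136000001-137000000, with the ephrin receptor gene Ephb2, Luzp1 and the histone demethylase gene Kdm1a, was replicated in 19 of 50 siRif1 and 45 of 60 siCont cells, a shift of -29.9 points. All 8 windows had 18 to 56 genes, stood between the percentiles 67.4 and 88.8 of the schedule (100 being earliest) and were replicated in 18 to 38% of siRif1 cells and 63.3 to 76.7% of siCont cells. Shares this high in siCont cells leave more room to fall than to rise.

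The windows with the highest shifts, picked in the same way, held at most 2 protein-coding genes each. The highest lay at chr1:25000001-26000000 and held Adgrb3, a gene of a synaptic adhesion G protein-coupled receptor, and the predicted gene Gm20172, which lies within its span. Most of its bins were replicated in 27 of 50 siRif1 cells (54%, interval 39.3 to 68.2%) and 17 of 60 siCont cells (28.3%, interval 17.5 to 41.4%), a mean shift of 32 points. In matched cells the counts were 23 of 43 siRif1 and 8 of 43 siCont cells. The window at chr1:22000001-23000000, with Rims1, a scaffold gene of presynaptic release sites, was replicated in 28 of 50 siRif1 and 16 of 60 siCont cells, a shift of 30.2 points, and in matched cells in 26 of 43 and 6 of 43. The windows at chr5:12000001-13000000, with the axon guidance gene Sema3d, and at chr2:41000001-42000000, within the lipoprotein receptor-related gene Lrp1b, had shifts of 25.7 and 24.8 points. The remaining windows, at chr12:42000001-43000000, chr6:45000001-46000000, chr1:50000001-51000000 and chr14:89000001-90000000, held the midpoint of no protein-coding gene and had shifts of 27.4, 24.7, 24.4 and 23.4 points. The last of them was replicated in 17 of 50 siRif1 cells (34%, interval 21.2 to 48.8%) and 7 of 60 siCont cells (11.7%, interval 4.82 to 22.6%). The 8 windows stood between the percentiles 4.47 and 26.9 of the schedule. Low siCont shares there leave more room to rise than to fall.

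**Figure D4:**
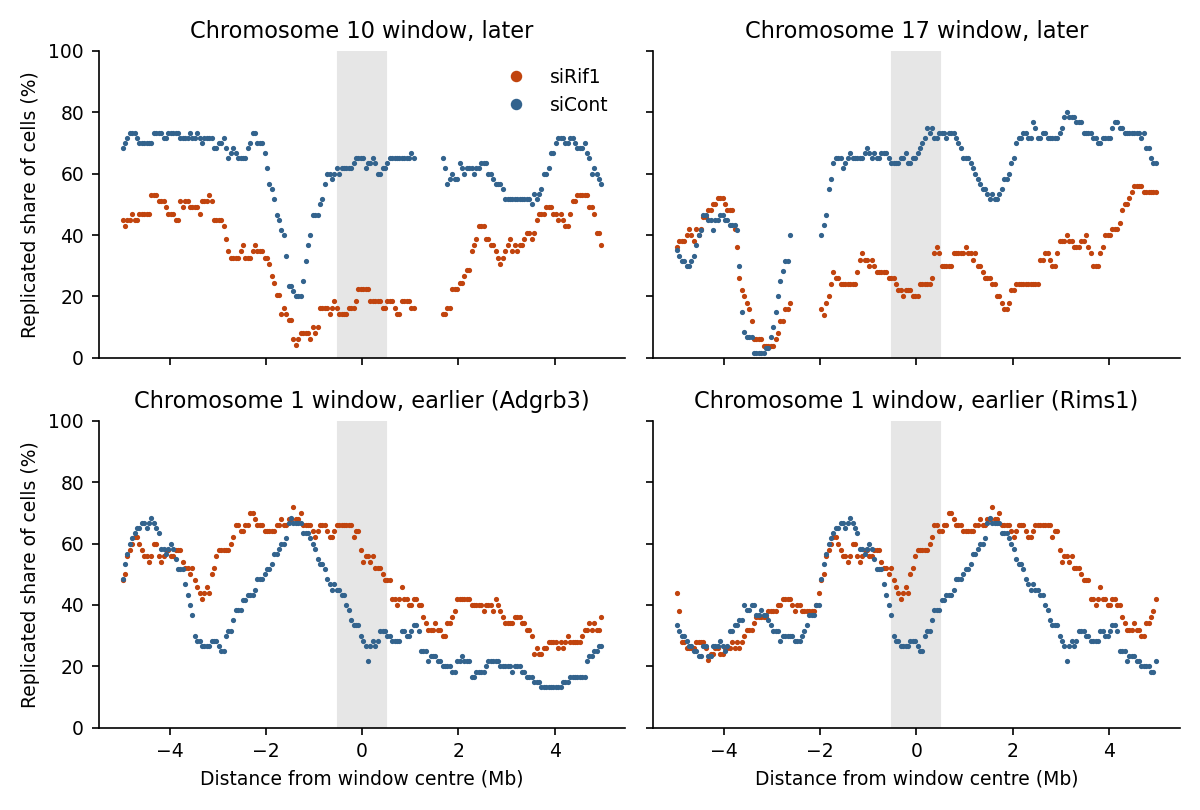
Replicated share (percent of cells) of each used bin within 5 Mb of the centre of 4 windows, in siRif1 and siCont cells; the shaded band is the 1-Mb window and gaps are bins that were not used. In the windows of chromosomes 10 and 17 (top) siRif1 cells lie far below siCont cells, and in both chromosome 1 windows (bottom), which are neighbours on the chromosome and share part of the region drawn, they lie above.

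The promoters of the longest genes of the lowest and highest 2 windows are shown because they let the sequence around these genes be set beside their shifts. The sequences are the 250 bases before the annotated start in RefSeq for GRCm38.p6, written 5′ to 3′ on the strand of the gene, with each CG dinucleotide in capitals. For Adgrb3 the promoter table uses a start that lies inside the gene's annotated span, which ends at base 25834772, and for the other genes the start is at the edge of that span. Gng7 (chr10:81014926-81015175, minus strand) and Lmf1 (chr17:25578924-25579173, plus strand) were later, with shifts of -39.2 and -39.8 points in their bins. Adgrb3 (chr1:25829708-25829957, minus strand) and Rims1 (chr1:22806159-22806408, minus strand) were earlier, with shifts of 34.2 and 37.5 points.
Gng7: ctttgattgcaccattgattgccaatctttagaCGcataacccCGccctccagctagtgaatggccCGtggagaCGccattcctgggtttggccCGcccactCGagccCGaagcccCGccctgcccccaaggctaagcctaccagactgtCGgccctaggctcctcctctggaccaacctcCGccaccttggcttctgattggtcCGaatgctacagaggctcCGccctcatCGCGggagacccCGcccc
Lmf1: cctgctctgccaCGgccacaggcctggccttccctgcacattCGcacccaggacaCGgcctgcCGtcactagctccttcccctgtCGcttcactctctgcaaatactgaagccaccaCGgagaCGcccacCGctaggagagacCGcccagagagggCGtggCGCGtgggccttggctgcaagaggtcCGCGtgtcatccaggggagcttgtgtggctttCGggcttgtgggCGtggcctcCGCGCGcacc
Adgrb3: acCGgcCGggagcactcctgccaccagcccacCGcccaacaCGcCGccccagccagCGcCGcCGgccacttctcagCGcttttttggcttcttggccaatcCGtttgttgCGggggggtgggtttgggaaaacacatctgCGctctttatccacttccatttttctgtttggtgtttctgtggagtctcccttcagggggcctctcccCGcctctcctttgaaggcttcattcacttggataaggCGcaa
Rims1: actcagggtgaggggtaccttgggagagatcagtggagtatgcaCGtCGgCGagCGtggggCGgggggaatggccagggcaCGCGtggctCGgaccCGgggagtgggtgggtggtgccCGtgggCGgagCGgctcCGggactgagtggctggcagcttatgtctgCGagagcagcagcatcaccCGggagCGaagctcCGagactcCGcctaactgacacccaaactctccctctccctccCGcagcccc

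The earlier genes had CG-rich promoters as well. The CG counts were 15 for Gng7 and 19 for Lmf1 among the later genes, and 14 for Adgrb3 and 19 for Rims1 among the earlier ones, with 59.2 to 68% of bases G or C. Over 15620 genes with a promoter in the table and a used bin, the median count of CG was 11, and 54.2% of promoters held 10 or more. Genes later by 20 points or more had a median of 13 CG (2873 promoters) and genes earlier by 20 points or more a median of 4 (159 promoters). Within the earliest quintile of the schedule the median was 14 in genes later by 20 points or more and 14 in the other genes. The later genes of that quintile thus had no more CG than its other genes. Within the latest quintile the median was 2 in the 49 genes earlier by 20 points or more and 1 in the others, and 10 or more CG were held by 20.4 and 9.89% of their promoters. CG reads the same on both strands, and no other motif was searched.

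Seen per gene, the shift was mostly below 0. Of 19580 autosomal protein-coding genes with their midpoint in a used bin, 71.5% had a shift below 0 and 28.5% a shift above 0, with a median of -7.50 points. Genes later by 20 points or more made up 18.1%, and genes earlier by as much 0.981%; at 30 points or more these were 3.81 and 0.0868%. Of 26 gene lists, 20 are described below and read against these values. Rif1 itself, on chromosome 2, was replicated in 28 of 50 siRif1 and 40 of 60 siCont cells, a shift of -4.50 points, which was 2.13 points in matched cells. Genes of the same block of DNA share their states, so neighbours among the genes named are not separate measurements. Unless said otherwise, genes named under a list are the 2 with the shift farthest from 0, so their counts restate that choice.

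Lists of housekeeping complexes had medians below that of all genes, which was -7.50 points with 71.5% of genes below 0. Of 75 mitochondrial ribosomal protein genes, 62 had shifts below 0, with a median of -15.5 points. Mrpl54, on chromosome 10, was replicated in 7 of 49 siRif1 and 39 of 60 siCont cells (shift -44.5 points), and Mrpl38, on chromosome 11, in 13 of 49 and 43 of 60 (shift -39.0 points). Of 38 proteasome subunit genes, which encode the cell's main protein-degrading complex, 36 were below 0, with a median of -13.0 points. Psmd3 was replicated in 16 of 49 siRif1 and 46 of 60 siCont cells (shift -37.8 points) and Psmd8 in 16 of 50 and 42 of 59 (shift -33.0 points). Of 39 genes of RNA polymerase II and the Mediator co-activator, 34 were below 0 (median -14.5 points), with Polr2e at 7 of 49 siRif1 and 36 of 60 siCont cells and Med24 at 17 of 49 and 46 of 60. Splicing factor genes had 37 of 48 members below 0 and a median of -12.7 points, among them Snrpc, of the U1 particle, at 12 of 50 siRif1 and 43 of 60 siCont cells. Sf3a2, of the U2 particle, was at 9 of 49 and 36 of 60.

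Glycolytic enzyme genes had 13 of 16 members below 0 and a median of -14.1 points, with Gpi1 (glucose-6-phosphate isomerase) at -28.2 and Pfkl (a phosphofructokinase) at -24.1 points. Oxidative phosphorylation genes had 60 of 78 members below 0 and a median of -9.50 points. Atp5d, of ATP synthase, was replicated in 7 of 49 siRif1 and 37 of 60 siCont cells, and Ndufs7, of respiratory complex I, in 8 of 49 and 37 of 60. Mrpl54, Polr2e, Sf3a2, Atp5d and Ndufs7 lie in the chromosome 10 run described above, and Psmd3 and Med24 lie in neighbouring bins of chromosome 11. Members later by 20 points or more numbered 21 of 75 mitochondrial ribosomal protein, 14 of 39 polymerase and Mediator, 17 of 78 oxidative phosphorylation and 10 of 48 splicing factor genes. They numbered 4 of 38 proteasome and 2 of 16 glycolytic genes, which are smaller shares than the 18.1% of all genes. The members of these lists were early genes in general, with list medians between the percentiles 80.3 and 86.9 of the schedule, compared with 73.9 for all genes.

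Genes that act in the embryo at this stage stood closer to the median of all genes than most housekeeping lists. Of 32 genes of compaction, polarity and Hippo signalling, which shape the outer and inner cells after the 8-cell stage, 26 were below 0, with a median of -9.25 points and 6 members later by 20 points or more. For this list and the next ones, 71.5% of all genes were below 0 and 18.1% were later by as much. Prkcz, of the apical polarity complex, was replicated in 15 of 50 siRif1 and 39 of 60 siCont cells, and the tight junction gene Cldn6 in 10 of 50 and 33 of 60, both a shift of -28.8 points. Genes of DNA methylation and histone modification had 28 of 36 members below 0, a median of -9.17 points and 11 members later by 20 points or more. Kdm1a, an H3K4 demethylase gene, was at -29.2 points, and Kmt2b, an H3K4 methyltransferase gene, at -27.9 points. Genes of nuclear architecture and cohesin had 20 of 23 members below 0, a median of -10.5 points and 6 members later by 20 points or more. Lmnb2, which encodes lamin B2, was replicated in 8 of 49 siRif1 and 37 of 60 siCont cells, and Chaf1a, of chromatin assembly factor 1, in 17 of 50 and 41 of 60.

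The genes of Rif1's own pathway were also mostly below 0, with 10 of 11 members and a median of -8.83 points. Over all genes 71.5% were below 0 and the median was -7.50 points. Ppp1cc, a catalytic subunit gene of PP1, was replicated in 23 of 50 siRif1 and 48 of 60 siCont cells, a shift of -27.8 points. Mad2l2, of the shieldin complex that acts with Rif1 at DNA breaks, was replicated in 15 of 50 siRif1 and 38 of 60 siCont cells, a shift of -27.2 points. The genes of DDK, picked here for their role and not by size, had shifts of -2.83 points (the kinase gene Cdc7) and 4.17 points (the gene of its partner, Dbf4). These are times of replication of the genes' DNA, and their expression was not measured.

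Neuronal and adhesion families spread widely in both directions. For comparison with these lists and those of the next paragraph, 71.5% of all genes were below 0, with a median of -7.50 points. The 42 GABA and glutamate receptor genes had 18 members below 0 and 24 above, a median of 5.64 points and quartiles of -19.4 and 16.3 points. Of them 11 were later and 5 earlier by 20 points or more, compared with 18.1 and 0.981% of all genes. Grin3b, an NMDA receptor subunit gene in the chromosome 10 run, was replicated in 8 of 49 siRif1 and 37 of 60 siCont cells, a shift of -39.2 points, and the metabotropic receptor gene Grm4 in 11 of 50 and 38 of 60, a shift of -35.2 points. Classical cadherin genes had 13 of 23 members below 0 and a median of -1.17 points, with Cdh22 at -24.2 and Cdh15 at -22.2 points. The semaphorin list, of axon guidance genes, had 14 of 20 below 0, near the share of all genes, and a median of -11.8 points. Sema6b was at 16 of 50 siRif1 and 42 of 60 siCont cells (shift -31.8 points) and Sema3d at 31 of 50 and 23 of 60 (shift 29.8 points).

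Contactin and neurexin family genes had 6 of 18 members below 0 and a median of 5.17 points, although their largest shifts were those of Nrxn2 (-25.6 points) and Cntnap1 (-21.7 points). The synaptic adhesion genes with leucine-rich repeats had 6 of 16 below 0 and a median of 5.24 points, with Lrfn3 at -37.8 and Flrt1 at -27.5 points. Potassium channel genes had 63 of 91 below 0, near the 71.5% of all genes, and a median of -9.83 points. The list was led by Kcnk6 (15 of 50 siRif1 and 42 of 59 siCont cells) and Kcnj14 (17 of 50 and 44 of 59). The lists of these families with medians above 0 had median schedule percentiles of 44.6, 25.5 and 30.4, and the potassium channel and semaphorin lists, with medians below 0, had 68.4 and 83.4. The cadherin list, with its median just below 0, stood at 36.9.

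Families in tandem clusters differed from each other. Of 104 keratin and keratin-associated protein genes, which lie in 54 bins, 81 were below 0, with a median of -14.2 points and 46 members later by 20 points or more. Over all genes 71.5% were below 0 and 18.1% were later by as much. Krt222 and Krt24 of chromosome 11 were replicated in 20 and 21 of 49 siRif1 cells, and both in 49 of 60 siCont cells, with shifts of -34.7 and -32.6 points. UDP-glucuronosyltransferase genes had 13 of 22 members below 0 and a median of -2.50 points. Ugt1a10, in the shared Ugt1 cluster of chromosome 1, was at -24.5 points, and Ugt8a, which makes a myelin lipid and lies outside the Ugt1 and Ugt2 clusters, was at 26.2 points. Cyp2 genes, of detoxifying cytochrome P450 enzymes, had 21 of 40 below 0 and a median of -0.232 points, with Cyp2d22 and Cyp2c23 at -21.2 and -21.1 points. The 17 members of the type I interferon list lie in 8 bins and had a median of -1.83 points. They include the receptor gene Ifnar2 (-10.2 points), which was matched by its symbol, and Ifnb1 (-5.50 points). The signs of the Cyp2 and interferon medians changed in matched cells. The vomeronasal receptor, defensin, serpin, natural killer lectin, major urinary protein and Pramel lists had under 80% of their members in used bins and are not described.

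**Figure D5:**
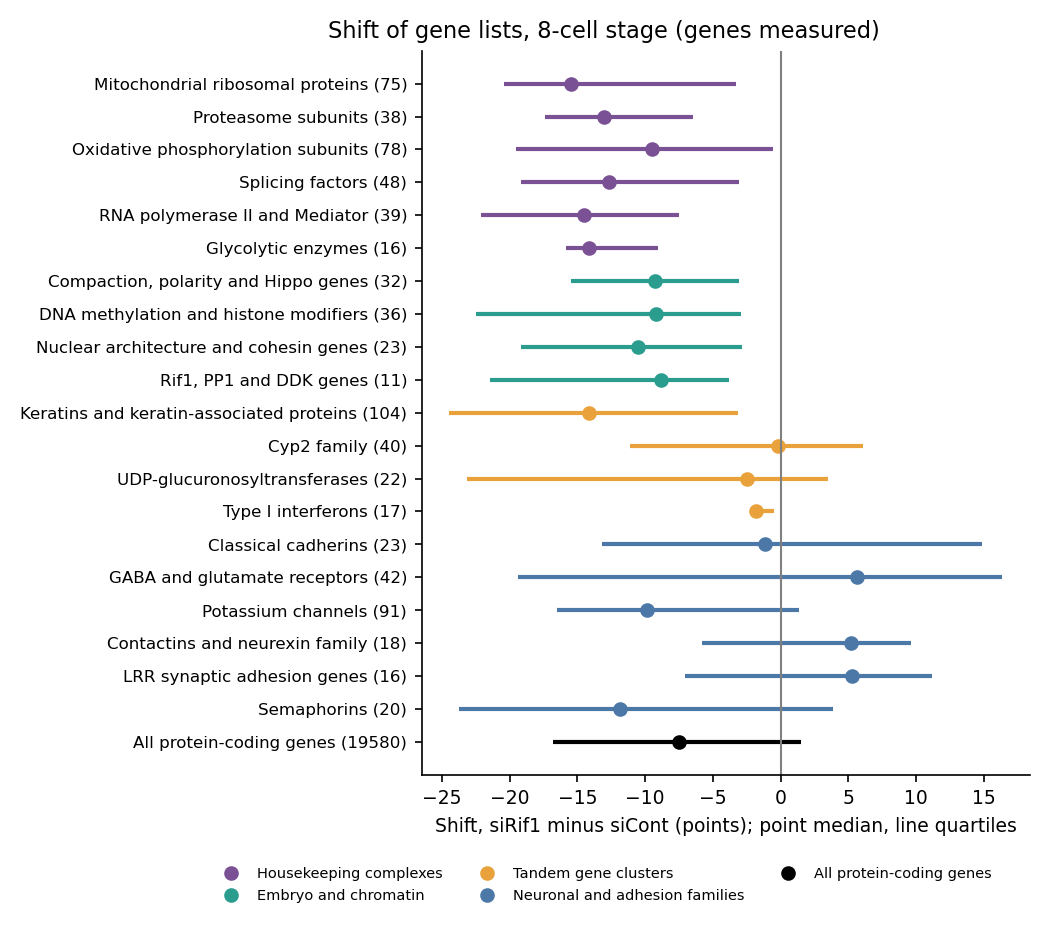
Median shift (points) and quartiles (lines) of each described gene list in siRif1 minus siCont cells of the 8-cell stage, in percentage points, with the number of genes measured in parentheses. Housekeeping lists lie between -15.5 and -9.50 points, below the median of all 19580 genes at -7.50 points, and neuronal and adhesion lists lie on both sides of 0.

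Across bins the 8-cell siRif1 profile was about as far from its own control as from the 4-cell siRif1 profile. Over 46015 bins its correlation was 0.773 with siRif1 cells of the 4-cell stage and 0.781 with siCont cells of the 8-cell stage. With siRif1 and siCont cells of the morula stage it was 0.699 and 0.692, and with siCont cells of the 4-cell stage 0.701. The siCont profile of the 8-cell stage had correlations of 0.800 and 0.908 with siCont cells of the 4-cell and morula stages. It was thus nearer to the later stage, whereas the siRif1 profile was nearer to the 4-cell stage of its own treatment. With siRif1 cells of the 4-cell and morula stages the siCont profile of the 8-cell stage had correlations of 0.781 and 0.872. The 4-cell siRif1 profile was therefore about as near to 8-cell siCont cells (0.781) as to 8-cell siRif1 cells (0.773). Each profile carries the counting error of its own number of cells, bins are not independent replicates, and the differences between these correlations were not tested.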

How the data were processed

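The tables the authors deposited, 1 per group, hold binary states (0, 1 or no value) for 50-kb bins and cells, and no read counts, so the depth per cell is unknown here. Per the submitters' processing notes, Bowtie2 2.5.1, SAMtools, Picard, bedtools and R 4.2.3 were used with GRCm38; their roles, the step from reads to states and the choice of cells are not given in the sources used here. A state of 1 was read as replicated because bins with a protein-coding gene had more of it than other bins (mean share 46.9 and 41.2% in siRif1 cells, 59.4 and 44.7% in siCont cells). Columns were assigned by title, and none was left unassigned. The X chromosome was not analysed here. Shares, shifts, scores and widths were computed in Python 3.11.15 with NumPy 2.4.6 and pandas 2.3.3, and exact intervals with SciPy 1.17.1. The computations were tested on simulated data. Genes were placed by their midpoint with a RefSeq table of GRCm38.p6.

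With 1 sample a group no test was made. Alternatives varied the cells, their weights, the bins, the schedule, the scale and the position of a gene, and runs of 8 consecutive title numbers were left out in turn, a choice made after seeing the data. The groups described and the gene lists were chosen with earlier results of these data known. Named genes are up to 3 of the longest in each of the 8 lowest and 8 highest windows of 1 Mb (with 15 or more used bins, 3 Mb apart), for each list the 2 genes with the shift farthest from 0, and Rif1. Cdc7 and Dbf4 were added for their role, with their values already known.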

Additional observations from a re-analysis of the deposited data

Results flagged for a closer look

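Of the 16 windows described, 6 had a shift at the 4-cell stage of the opposite sign to that of the 8-cell stage, and this difference between stages was not tested. Among windows later in siRif1 cells at the 8-cell stage, the window of chromosome 17 from 25 to 26 Mb (Lmf1, Ift140 and Cacna1h) had a shift of 3.41 points at the 4-cell stage and -22.3 points at the morula stage. The window of chromosome 2 from 26 to 27 Mb (Notch1) had shifts of 3.46 and -23.1 points at these stages. Among windows earlier at the 8-cell stage, the window of chromosome 12 from 42 to 43 Mb, which held the midpoint of no protein-coding gene, had -10.6 points at the 4-cell stage and 20.3 points at the morula stage. The window of chromosome 5 from 12 to 13 Mb (Sema3d) had -3.09 and 6.14 points. The window of chromosome 2 from 41 to 42 Mb (Lrp1b) had -0.778 and 24.2 points, and that of chromosome 1 from 50 to 51 Mb -3.56 and 26.2 points. In all 6 the morula shift had the sign of the 8-cell shift.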

How the results depend on the processing

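No paired analysis was possible because the numbers in the titles count cells, each group is 1 sample, and the results come from no test. Of 47 recomputed values of the comparisons between the groups, 38 stayed within the SD over autosomes, or within 1.5 times for counts and percentages of bins, and 9 did not. That SD comes from the same cells and leaves out variation between cells or embryos. None of the 47 changed sign. The late minus early distance was 14.9 percentile points on ranks, a unit unlike the percentage points of the main value. The percentage of bins later by 30 points or more was 2.23% in matched cells and 1.84% with 3 classes of S phase weighted equally, and 6.40% of bins were later by 20 points. The percentage earlier by 30 points was 0.411% in cells 20 to 80% replicated and 0.653% in matched cells, and 3.93% of bins were earlier by 20 points. The order score difference was -7.41 points with each group's own schedule, and the difference in switches was 0.768 per 1000 in cells 35 to 65% replicated. A minimum of 30 cells per bin kept the same bins, so its values, counted among the 38, were the same by construction. A minimum of 10 cells in all 6 groups kept 46015 of 46230 bins, so its values could hardly move. The cause of the changes under the other alternatives was not tested.

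Leaving out each run of 8 title numbers in turn (17 settings) gave a late minus early distance of 14.4 to 25.2 points, a difference in SD over bins of -6.71 to -3.10 points, and 0.508 to 2.06% of bins later and 0.151 to 0.495% earlier by 30 points. It gave an order score difference of -13.8 to -8.57 points, a width difference of 19.2 to 45.1 points, a difference in pair correlation of -0.108 to -0.0495, and a difference in switches of 1.2 to 4.44 per 1000. No sign changed. Of 81 recomputed medians of gene lists 76 kept their sign. The Cyp2 median was 0.723 points in matched cells, the type I interferon median 2.13 points in matched cells and 1.68 points with equal weights, and the Pramel median, which is not described above, 2.13 and 2.5 points. States without read counts leave the depth behind a single state unknown, and 1 sample a group leaves the variation between embryos unmeasured.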
